A study of Homo sapiens with 18 samples.

Results

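Collagen genes were taken as every row of the deposited expression table whose symbol is COL, a number, A and a second number, with nothing else. The rule found 44 genes among the 56269 in the table. Of these, 30 reached a mean deposited value of 10 across 18 libraries, namely 10 of 11 fibrillar collagen genes, 4 of 6 basement membrane (type IV) genes, 6 of 10 FACIT genes (fibril-associated collagens with interrupted triple helices) and 10 of 17 of other types. The other 14 had means below 10, the highest of them 8.12 (COL25A1), and COL6A5 had no read in any library. A deposited value is the number of reads of a gene divided by a scaling factor of its library, so that values of 1 gene can be compared between libraries.

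The cells were IMR90, a human lung fibroblast line, grown in medium with 15% fetal bovine serum. They were pre-incubated for 6 h with phosphate-buffered saline (PBS), with 20 µg/ml hyaluronan (HA) from naked mole-rat skin fibroblasts mixed with heat-inactivated hyaluronidase (cNSF-HA), or with the same HA partly cut by hyaluronidase before the enzyme was heat-inactivated (fNSF-HA). Each pre-incubation had 3 libraries of unstressed cells, collected at its end, and 3 of cells from which HA was removed and which were then exposed for 1 h to 200 µM tert-butyl hydroperoxide (tBHP), an oxidant, and collected 6 h after its start, which gives 6 groups. Unstressed cells were therefore collected earlier, and an effect of tBHP and one of the added hours or of the handling cannot be told apart in any value given here as a tBHP response. The study describes its replicates as biological, and the labels do not say whether the libraries of a group came from separate cultures. The p-values measure the spread between these libraries.

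Collagens are the main proteins of the extracellular matrix, built from 3 polypeptide chains wound into a triple helix. In lung fibroblasts the fibrillar types I, III and V form the fibrils that carry tension, type VI forms beaded filaments around cells, FACIT members sit on fibril surfaces, and type IV builds the meshwork of basement membranes. Chains are hydroxylated and folded in the endoplasmic reticulum, exported, trimmed of their propeptides and crosslinked by lysyl oxidases.

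The RefSeq promoter table held 44 windows (250 bases before to 50 after a start site) for 32 of the 44 collagen genes, 21 of them among the 30 with a mean of at least 10. The collagen windows had a median GC content of 63.7%, against 58.7% over all 35116 windows. On either strand, a GC box (GGGCGG) was found in 54.5% of collagen windows and 45% of all windows, a CCAAT box (CCAAT) in 31.8% and 34.6%, a TATA box (TATAAA) in 18.2% and 11.5%, and an AP-1 site (TGANTCA) in 2.27%, the window of COL10A1, and 7.71%. Some genes have several windows, and those of COL5A1 overlap, as do those of COL4A1 and COL4A2. The same site can thus be counted more than once. The 250 bases upstream of the RefSeq start are given for 3 collagens with opposite responses below, COL7A1 and COL27A1, which rose with PBS, and COL11A1, which fell. They are in GRCh38.p14, 5′ to 3′ along the gene, and no exon of GENCODE release 29 overlaps them, although 1 annotated COL11A1 transcript starts farther upstream. Capitals mark the GC, CCAAT and TATA boxes on either strand, and none of those shown overlaps another. The window of COL7A1 lies at chr3:48595330-48595579 on the minus strand, that of COL11A1 at chr1:103108523-103108772 on the minus strand and that of COL27A1 at chr9:114155287-114155536 on the plus strand.
COL7A1: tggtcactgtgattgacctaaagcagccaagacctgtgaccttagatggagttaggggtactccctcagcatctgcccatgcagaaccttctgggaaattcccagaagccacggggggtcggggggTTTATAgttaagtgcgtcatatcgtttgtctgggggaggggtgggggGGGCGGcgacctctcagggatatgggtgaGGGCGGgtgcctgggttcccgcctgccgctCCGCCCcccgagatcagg
COL11A1: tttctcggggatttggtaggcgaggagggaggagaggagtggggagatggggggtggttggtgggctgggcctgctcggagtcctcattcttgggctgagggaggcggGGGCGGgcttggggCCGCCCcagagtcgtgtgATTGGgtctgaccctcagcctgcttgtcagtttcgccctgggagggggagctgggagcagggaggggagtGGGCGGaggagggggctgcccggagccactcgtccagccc
COL27A1: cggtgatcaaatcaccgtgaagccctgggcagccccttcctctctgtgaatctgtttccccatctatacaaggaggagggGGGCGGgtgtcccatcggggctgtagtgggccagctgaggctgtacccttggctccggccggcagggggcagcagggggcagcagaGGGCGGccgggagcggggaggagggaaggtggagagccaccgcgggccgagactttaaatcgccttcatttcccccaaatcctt
The COL7A1 sequence has 3 GC boxes and 1 TATA box, that of COL11A1 has 3 GC boxes and 1 CCAAT box, and that of COL27A1 has 2 GC boxes. All 3 sequences hold GC boxes, while the CCAAT box is found in that of COL11A1 alone and the TATA box in that of COL7A1 alone. The last reads TTTATA and starts at base 127, so TATAAA lies on the other strand. These are matches of letters, and their use by the genes was not tested.

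Collagen transcripts made up 3.55% to 3.74% of all reads assigned to genes in the 9 libraries without tBHP (median 3.66%), and 2.86% to 4.19% in the 9 after tBHP (median 3.62%). Both chains of type I collagen and the large chain of type VI, COL6A3, supplied most of them, 70.3% to 71.2% of collagen reads without tBHP and 69.8% to 73.7% after it. COL1A1 ranked 2nd of all genes by deposited value in 17 libraries and 4th in fNSF-HA tBHP replicate 2.

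To compare genes, deposited values were divided by the length of the longest protein-coding transcript in kb (GENCODE release 29). In the unstressed PBS libraries the level per kb was 38870 ± 836 (SD, n = 3) for COL1A1 and 24510 ± 541 (SD, n = 3) for COL1A2, the chains of type I collagen, the bulk of most fibrils. The type VI chains followed, at 16390 ± 116 per kb for COL6A3, 13080 ± 200.0 for COL6A2 and 10500 ± 162 for COL6A1 (SD, n = 3 each). Behind them came COL4A2 (4154 per kb) and COL4A1 (3035), the chains of the most widespread type IV collagen, and COL3A1 (2950), the fibrillar partner of type I. COL12A1, a FACIT, stood at 2699 per kb, and the type V chains COL5A1 and COL5A2, which limit fibril diameter, at 2145 and 2043.

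A middle group held COL16A1 (887.8 per kb), COL7A1 (563, the collagen of anchoring fibrils), COL8A1 (539.9, a network-forming collagen), COL13A1 (515, a transmembrane collagen), COL18A1 (386, a basement membrane collagen whose end is cut off as endostatin), COL11A1 (153) and COL27A1 (107). The rest lay below 100 per kb, from COL4A5 (54.0), COL5A3 (50.4), COL15A1 (26.1), COL14A1 (16.8), COL9A3 (15.8), COL9A2 (14.2), COL24A1 (13.5), COL17A1 (10.1), COL8A2 (9.27), COL4A6 (8.45) and COL22A1 (4.16) down to COL11A2 (3.13). The 3 PBS libraries of a gene overlapped those of the next gene in this order for COL7A1 and COL8A1, COL4A5 and COL5A3, COL14A1 and COL9A3, COL9A3 and COL9A2, COL9A2 and COL24A1, COL17A1 and COL8A2, COL8A2 and COL4A6, and COL22A1 and COL11A2. Divided by the summed length of all annotated exons instead, 15 of the 30 ranks moved, COL12A1 to rank 6, COL3A1 to 7 and COL4A1 to 11.

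**Figure D1:**
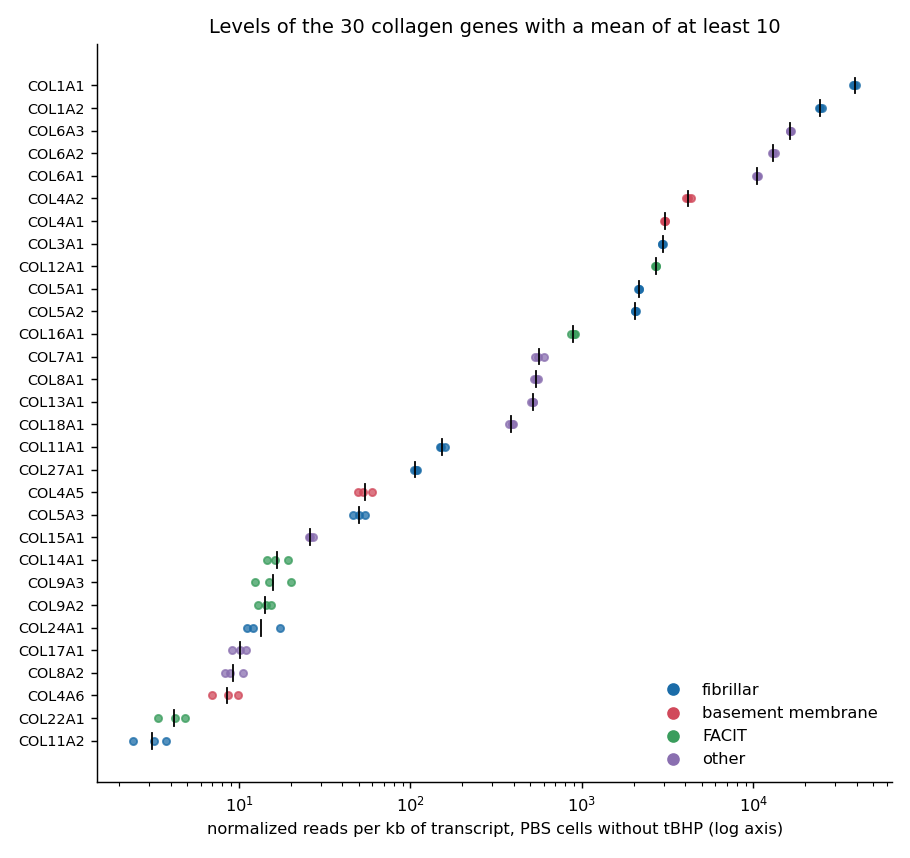
Deposited value per kb of transcript (log axis) for the 30 collagens with a mean of at least 10 in the 3 unstressed PBS libraries (points) with their mean (tick), coloured by type. COL1A1 is highest at 38870 and COL11A2 lowest at 3.13.

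In some stressed libraries the collagens stood apart from the others. In fNSF-HA tBHP replicate 2 the abundant collagens with high GC content were low, and in cNSF-HA tBHP replicate 3 COL12A1 and COL6A3 were (values below). In PBS tBHP replicate 1 all 16 collagens with a mean of at least 1000 were above the mean of the stressed libraries (median 0.21 log2 units), as they were in cNSF-HA tBHP replicate 1 (0.13). The counts of limma calls were also computed without the first 2 of these libraries, and without the first 3. These libraries were picked after their collagen values had been seen, so calls and p-values without them are descriptions only.

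For the tBHP responses limma was fitted to log2(deposited value + 1) across the 13686 genes with a mean of at least 10, and a gene was called at an adjusted p (Benjamini-Hochberg) under 0.05. All log2 differences below are on this scale, tBHP minus no tBHP within 1 pre-incubation, given as with PBS, with cNSF-HA or with fNSF-HA, and understate the change of genes with low values. With PBS 5 of the 30 collagens were called higher and 7 lower, while 24.2% of all genes tested were called higher and 26.9% lower. With cNSF-HA 5 were higher and 7 lower (24% and 26.8% of all genes), and with fNSF-HA 1 was higher and 7 lower (19.2% and 22.7%). With all libraries in the fit these counts were near or below the shares of all genes. The median log2 difference over the 30 was 0.06 with PBS, 0.02 with cNSF-HA and -0.13 with fNSF-HA, against 0.0043, -0.00053 and -0.034 over all genes. In bulk RNA, fewer cells with a transcript and less of it per cell cannot be told apart.

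The range of the 3 stressed libraries lay outside that of the 3 unstressed ones for 14 of the 30 collagens with PBS (63.8% of all genes), 17 with cNSF-HA (63.7%) and 12 with fNSF-HA (48.7%). Over the 3 responses, 6 collagens were called in all, COL7A1 higher and COL3A1, COL4A1, COL8A1, COL11A1 and COL14A1 lower, while 32.4% of all genes were called in all 3. Another 5 collagens were called in 2 responses (14.5% of all genes), 4 in 1 (17.5%) and 15 in none (35.6%). The split of calls moved with the method. On the recovered reads edgeR called 6 higher and 5 lower with cNSF-HA (28.8% and 23.8% of all genes) and 3 and 6 with fNSF-HA (24.2% and 19.1%). For fNSF-HA the split was 3 and 7 after quantile normalization (21.2% and 21.2%) and by DESeq2 (20.5% and 22.6%). Without fNSF-HA tBHP replicate 2 and cNSF-HA tBHP replicate 3, limma called 7 collagens higher and 8 lower with PBS (30.7% and 31.6% of all genes), 7 and 6 with cNSF-HA (26.9% and 28%), and 5 and 8 with fNSF-HA (26.9% and 28.6%), and the median log2 difference with fNSF-HA became 0.045. With PBS tBHP replicate 1 left out as well, it called 6 higher and 10 lower with PBS (29.4% and 30.5%), 8 and 7 with cNSF-HA (29.2% and 30.4%), and 6 and 9 with fNSF-HA (28.9% and 30.9%).

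**Figure D2:**
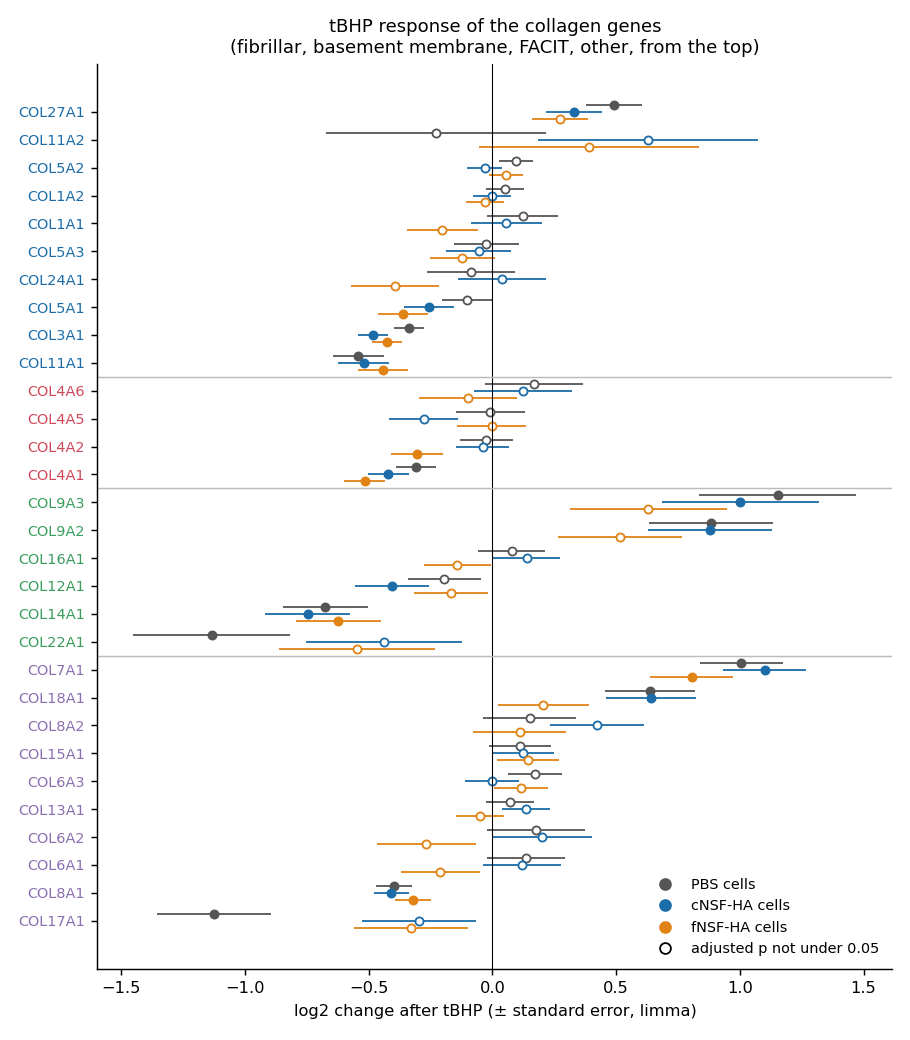
Log2 difference after tBHP (horizontal axis, ± SE from limma) for the 30 collagens with PBS, cNSF-HA and fNSF-HA, with filled points for adjusted p under 0.05. COL7A1 lies right of 0 in each pre-incubation, and COL3A1, COL4A1, COL8A1, COL11A1 and COL14A1 lie left of it.

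Among the 10 fibrillar genes tested, 1 was called higher and 2 lower with PBS, 1 and 3 with cNSF-HA, and 0 and 3 with fNSF-HA. The shares of all genes called higher and lower were 24.2% and 26.9% with PBS, 24% and 26.8% with cNSF-HA, and 19.2% and 22.7% with fNSF-HA, here and for each smaller list below. COL3A1, the gene of type III collagen, had deposited values of 16336, 16383 and 16344 for PBS, 16938, 16518 and 16466 for cNSF-HA and 16639, 16345 and 16345 for fNSF-HA without tBHP. After tBHP the COL3A1 values were 13626, 13134 and 12149 for PBS, 12818, 12058 and 10950 for cNSF-HA and 12612, 11802 and 12345 for fNSF-HA. Every stressed library lay below every unstressed one, and COL3A1 fell by 0.34, 0.48 and 0.42 log2 units with PBS, cNSF-HA and fNSF-HA (SE 0.061; limma adjusted p 0.000174, 4.47e-06 and 2.08e-05).

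COL11A1, a minor fibrillar chain that joins type V and type II fibrils, had unstressed values of 1172, 1091 and 1108 for PBS, 1136, 1092 and 1059 for cNSF-HA and 1086, 1077 and 1129 for fNSF-HA. Its stressed values were 829.6, 771 and 718 for PBS, 851, 837 and 624 for cNSF-HA and 824, 874 and 731 for fNSF-HA. These groups did not overlap either, and the log2 differences were -0.54, -0.52 and -0.44 (SE 0.10; limma adjusted p 0.000259, 0.000387 and 0.00197).

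The fibril-regulating chain COL5A1 gave 18163, 18072 and 18288 for PBS, 18672, 18618 and 18794 for cNSF-HA and 17779, 17531 and 18129 for fNSF-HA before tBHP. Afterwards it gave 19439, 16211 and 15370 for PBS, 17210, 16234 and 13728 for cNSF-HA and 14308, 11670 and 15961 for fNSF-HA. The stressed libraries lay below the unstressed ones with cNSF-HA and fNSF-HA, whereas PBS tBHP replicate 1 exceeded all PBS libraries. COL5A1 fell by 0.26 log2 units with cNSF-HA and 0.36 with fNSF-HA (limma adjusted p 0.044 and 0.00828), and was not called with PBS (log2 difference -0.10, SE 0.10, adjusted p 0.416). It was called lower with PBS under quantile normalization (-0.24, adjusted p 0.0331) and with fNSF-HA tBHP replicate 2, cNSF-HA tBHP replicate 3 and PBS tBHP replicate 1 left out (-0.20, adjusted p 0.000206). The call with cNSF-HA was lost under 15 of 31 other settings, and that difference was -0.16 without cNSF-HA tBHP replicate 3 and -0.43 with the GC and length trend described below removed. The fNSF-HA difference was -0.24 without fNSF-HA tBHP replicate 2 and stayed called.

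COL27A1, a fibrillar collagen of cartilage, measured 842, 812 and 845 for PBS, 878, 814 and 841 for cNSF-HA and 784, 775 and 822 for fNSF-HA in unstressed cells. In stressed cells it measured 1176, 1226 and 1118 for PBS, 1190, 1036 and 967 for cNSF-HA and 1048, 749 and 1121 for fNSF-HA. All stressed PBS and cNSF-HA libraries were above their unstressed groups, while fNSF-HA tBHP replicate 2 was below its group. COL27A1 rose by 0.49 log2 units with PBS and 0.33 with cNSF-HA (SE 0.11; limma adjusted p 0.00146 and 0.0216), and its log2 difference with fNSF-HA was 0.27 (adjusted p 0.0617). With the GC and length trend removed, the PBS difference was 0.17 and the cNSF-HA difference 0.12, the latter not called (limma adjusted p 0.138). The cNSF-HA call was also lost without cNSF-HA replicate 2 (0.30), cNSF-HA replicate 3 (0.33) or cNSF-HA tBHP replicate 1 (0.25).

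The type I genes were not called in any response with all libraries in the fit. COL1A1 values ran 267856, 259143 and 257346 for PBS, 269412, 265144 and 269707 for cNSF-HA and 257793, 254362 and 259877 for fNSF-HA without tBHP. With tBHP they ran 337705, 265930 and 256891 for PBS, 293994, 276413 and 266057 for cNSF-HA and 238298, 160232 and 292281 for fNSF-HA. The stressed COL1A1 values were on both sides of the unstressed ones with PBS and fNSF-HA, 2 of 3 were above them with cNSF-HA, and fNSF-HA tBHP replicate 2 was the lowest of all 18. Its log2 differences were 0.12, 0.06 and -0.20 (SE 0.14; limma adjusted p 0.494, 0.765 and 0.275). COL1A1 was called lower with fNSF-HA once fNSF-HA tBHP replicate 3 was left out (-0.40, limma adjusted p 0.0157). COL1A2 had values of 135704, 129890 and 132234 for PBS, 132803, 130887 and 132597 for cNSF-HA and 133805, 133800 and 133474 for fNSF-HA without tBHP. After tBHP they were 152961, 133212 and 126987 for PBS, 139869, 135050 and 122058 for cNSF-HA and 135736, 117088 and 141797 for fNSF-HA. The stressed COL1A2 values lay on both sides of the unstressed ones in every pre-incubation, with log2 differences of 0.05, 0.00016 and -0.03 (SE 0.077). The remaining fibrillar genes, COL5A2, COL5A3, COL11A2 and COL24A1, were not called with all libraries in the fit, with log2 differences from -0.39 (COL24A1, fNSF-HA cells) to 0.63 (COL11A2, cNSF-HA cells). With fNSF-HA tBHP replicate 2 and cNSF-HA tBHP replicate 3 left out, COL24A1 was called lower with fNSF-HA (-0.48, limma adjusted p 0.0426) and COL5A2 higher with PBS (0.096, adjusted p 0.0434).

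Of the 4 basement membrane genes of type IV tested, none was called higher, and 1 was called lower with PBS, 1 with cNSF-HA and 2 with fNSF-HA (26.9%, 26.8% and 22.7% of all genes lower). COL18A1, a basement membrane collagen counted here with the other types, was called higher with PBS and cNSF-HA (values below). COL4A1 had values of 20200, 19890 and 20139 for PBS, 19318, 19930 and 19540 for cNSF-HA and 20534, 20226 and 20677 for fNSF-HA without tBHP. After tBHP they were 17500, 16067 and 15178 for PBS, 15937, 15984 and 12320 for cNSF-HA and 15076, 13648 and 14260 for fNSF-HA. No stressed library reached an unstressed one of the same pre-incubation, and COL4A1 fell by 0.31, 0.42 and 0.52 log2 units (SE 0.082; limma adjusted p 0.00436, 0.000358 and 6.04e-05). The PBS difference was -0.55 with the GC and length trend removed.

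COL4A2, which supplies the other chain of the same triple helix, showed 27941, 26179 and 26806 for PBS, 26609, 26620 and 26724 for cNSF-HA and 26897, 25978 and 27513 for fNSF-HA in unstressed cells. The stressed libraries showed 30482, 24835 and 24579 for PBS, 26593, 26886 and 24377 for cNSF-HA and 22756, 17369 and 25832 for fNSF-HA. COL4A2 overlapped between the groups with PBS and cNSF-HA (log2 differences -0.03 and -0.04, SE 0.11) and fell by 0.30 with fNSF-HA (limma adjusted p 0.0283). Without fNSF-HA tBHP replicate 2 that difference was -0.14 and was not called, while with cNSF-HA tBHP replicate 3 and PBS tBHP replicate 1 left out as well it was called at the same size (adjusted p 0.00627), as was a PBS difference of -0.13 (adjusted p 0.0149). Quantile normalization called COL4A2 lower with PBS and cNSF-HA too (-0.30 and -0.31). COL4A5 and COL4A6 were not called, with log2 differences from -0.28 to 0.17.

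Of the 6 FACIT genes tested, 2 were called higher and 2 lower with PBS and with cNSF-HA, and 0 and 1 with fNSF-HA (24.2% and 26.9% of all genes with PBS, 19.2% and 22.7% with fNSF-HA). COL14A1, which binds to the surface of type I fibrils, had low values of 126, 105 and 94.3 for PBS, 81.1, 118 and 94.1 for cNSF-HA and 111, 120.2 and 104 for fNSF-HA without tBHP. They were 65.8, 66.4 and 68.9 for PBS, 65.4, 67.0 and 42.7 for cNSF-HA and 70.2, 69.1 and 77.4 for fNSF-HA after it. The groups did not overlap, and COL14A1 fell by 0.68, 0.75 and 0.62 log2 units (SE 0.17; limma adjusted p 0.00342, 0.00163 and 0.00748).

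COL9A2 and COL9A3 encode chains of type IX collagen, a FACIT of cartilage. COL9A3 gave 50.2, 30.8 and 37.2 for PBS, 46.8, 26.4 and 45.5 for cNSF-HA and 27.5, 29.6 and 34.5 for fNSF-HA unstressed. It gave 85.1, 80.6 and 96.3 for PBS, 79.1, 60.9 and 97.6 for cNSF-HA and 35.1, 33.0 and 92.3 for fNSF-HA after tBHP. The stressed values were above the unstressed ones with PBS and cNSF-HA, while 2 of the 3 stressed fNSF-HA libraries lay near the unstressed level. COL9A3 rose by 1.15 and 1.00 log2 units with PBS and cNSF-HA (SE 0.32; limma adjusted p 0.00567 and 0.0138) and was not called with fNSF-HA (0.63, adjusted p 0.123). With the GC and length trend removed the values were 0.74 and 0.57 with PBS and cNSF-HA, the latter not called (limma adjusted p 0.0516), and the cNSF-HA call was also lost without cNSF-HA replicate 2 (0.74) or cNSF-HA tBHP replicate 3 (0.84).

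For COL9A2 the unstressed libraries gave 36.7, 41.1 and 44.1 for PBS, 38.2, 30.3 and 55.8 for cNSF-HA and 38.3, 47.3 and 46.6 for fNSF-HA. The stressed libraries gave 88.5, 65.3 and 74.4 for PBS, 63.2, 68.0 and 96.6 for cNSF-HA and 77.2, 41.5 and 78.6 for fNSF-HA. The stressed values were again above the unstressed ones with PBS and cNSF-HA, and fNSF-HA tBHP replicate 2 was at the unstressed level. COL9A2 rose by 0.88 and 0.88 log2 units with PBS and cNSF-HA (SE 0.25; limma adjusted p 0.00683 and 0.00718), and its difference of 0.52 with fNSF-HA was not called (adjusted p 0.108). Both calls held with the trend removed, at 0.51 and 0.49. Of 3 chondrocyte markers, all with means of at least 10, SOX9, a transcription factor of cartilage, was also called higher in each response (log2 differences 0.65, 0.46 and 0.39), ACAN and MATN3 were not called, and the summed markers ran from 1658 to 1801 without tBHP and from 2039 to 2667 after it. Their part in the rise of COL9A2 and COL9A3 was not tested.

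COL12A1, the abundant FACIT of fibroblasts, had values of 31708, 31833 and 31365 for PBS, 30349, 31911 and 30720 for cNSF-HA and 31292, 31861 and 32368 for fNSF-HA in unstressed cells. After tBHP it had 28085, 28974 and 25988 for PBS, 29100, 26897 and 16371 for cNSF-HA and 27980, 33773 and 24102 for fNSF-HA. cNSF-HA tBHP replicate 3 was far below the other libraries. COL12A1 fell by 0.41 log2 units with cNSF-HA (SE 0.15; limma adjusted p 0.0302), a call that was lost without that library, at -0.15, and under 6 other settings. Without both that library and fNSF-HA tBHP replicate 2, COL12A1 was called lower in each response (-0.19, -0.15 and -0.29; limma adjusted p 0.00284, 0.0365 and 0.000227). The left-out libraries were picked with these values known, so those calls are a description only.

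COL22A1, found at tissue junctions, had low values of 30.9, 21.5 and 26.8 for PBS, 15.3, 15.6 and 20.7 for cNSF-HA and 20.6, 24.6 and 23.3 for fNSF-HA without tBHP. After tBHP they were 18.2, 6.53 and 12.04 for PBS, 10.5, 10.1 and 17.3 for cNSF-HA and 12.3, 14.9 and 19.4 for fNSF-HA. Its unstressed values with cNSF-HA were below those with PBS. COL22A1 fell by 1.14 log2 units with PBS (limma adjusted p 0.00606), and its responses with cNSF-HA and fNSF-HA were not called (-0.44 and -0.55). The difference between responses was not called for COL22A1 in any pair of pre-incubations. COL16A1 was not called, at 0.08, 0.14 and -0.14, but was called lower with fNSF-HA when fNSF-HA tBHP replicate 3 was left out (-0.32) and higher with cNSF-HA when fNSF-HA tBHP replicate 2, cNSF-HA tBHP replicate 3 and PBS tBHP replicate 1 were (0.13).

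Among the 10 collagens of other types, 2 were called higher and 2 lower with PBS, 2 and 1 with cNSF-HA, and 1 and 1 with fNSF-HA (24.2% and 26.9% of all genes with PBS, 24% and 26.8% with cNSF-HA, and 19.2% and 22.7% with fNSF-HA). COL7A1, whose protein forms the anchoring fibrils below epithelia, had values of 5158, 4948 and 5568 for PBS, 4949, 5521 and 5332 for cNSF-HA and 4293, 4869 and 5005 for fNSF-HA without tBHP. With tBHP the values were 10888, 9966 and 10590 for PBS, 11082, 10231 and 12652 for cNSF-HA and 9021, 5459 and 11347 for fNSF-HA. Every stressed PBS and cNSF-HA library lay above all unstressed ones, whereas fNSF-HA tBHP replicate 2 was below 1 unstressed PBS and 1 unstressed cNSF-HA library. COL7A1 rose by 1.00, 1.10 and 0.81 log2 units (2.01-fold, 2.14-fold and 1.75-fold; SE 0.17; limma adjusted p 7.95e-05, 3.48e-05 and 0.000821).

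COL18A1 gave 2604, 2458 and 2564 for PBS, 2589, 2586 and 2533 for cNSF-HA and 2406, 2276 and 2548 for fNSF-HA without tBHP. It gave 4802, 3661 and 3520 for PBS, 3911, 3867 and 4250 for cNSF-HA and 2977, 1798 and 4002 for fNSF-HA with tBHP. The lowest of all 18 values came from fNSF-HA tBHP replicate 2, while its partner libraries were above every unstressed one. COL18A1 rose by 0.64 and 0.64 log2 units with PBS and cNSF-HA (SE 0.18; limma adjusted p 0.00722 and 0.00718), and by 0.21 and 0.33 with the GC and length trend described below removed. With fNSF-HA the difference of 0.21 was not called, and without replicate 2 it was 0.52 and was called, as were COL9A2, COL9A3 and COL27A1 (24.4% of all genes were then called higher).

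COL8A1 had values of 3009, 3089 and 3143 for PBS, 3004, 2978 and 2930 for cNSF-HA and 3066, 3152 and 3039 for fNSF-HA in unstressed cells. In stressed cells the values were 2433, 2391 and 2199 for PBS, 2495, 2237 and 2010 for cNSF-HA and 2446, 2601 and 2368 for fNSF-HA. The groups did not overlap in any pre-incubation, and COL8A1 fell by 0.40, 0.41 and 0.32 log2 units (SE 0.072; limma adjusted p 0.000172, 0.000141 and 0.00148).

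COL17A1, a transmembrane collagen of hemidesmosomes, measured 57.9, 62.5 and 51.9 for PBS, 42.0, 62.6 and 53.8 for cNSF-HA and 54.9, 30.5 and 48.4 for fNSF-HA without tBHP. It measured 34.0, 20.7 and 24.1 for PBS, 39.0, 48.7 and 39.6 for cNSF-HA and 30.7, 33.0 and 39.9 for fNSF-HA after it. The groups were apart with PBS. COL17A1 fell with PBS by 1.13 log2 units (SE 0.23; limma adjusted p 0.000563) and was not called with cNSF-HA (-0.30) or with fNSF-HA (-0.33). The difference between the PBS and cNSF-HA responses of COL17A1 was 0.83 on the log2 scale and was not called (limma adjusted p 0.999).

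**Figure D3:**
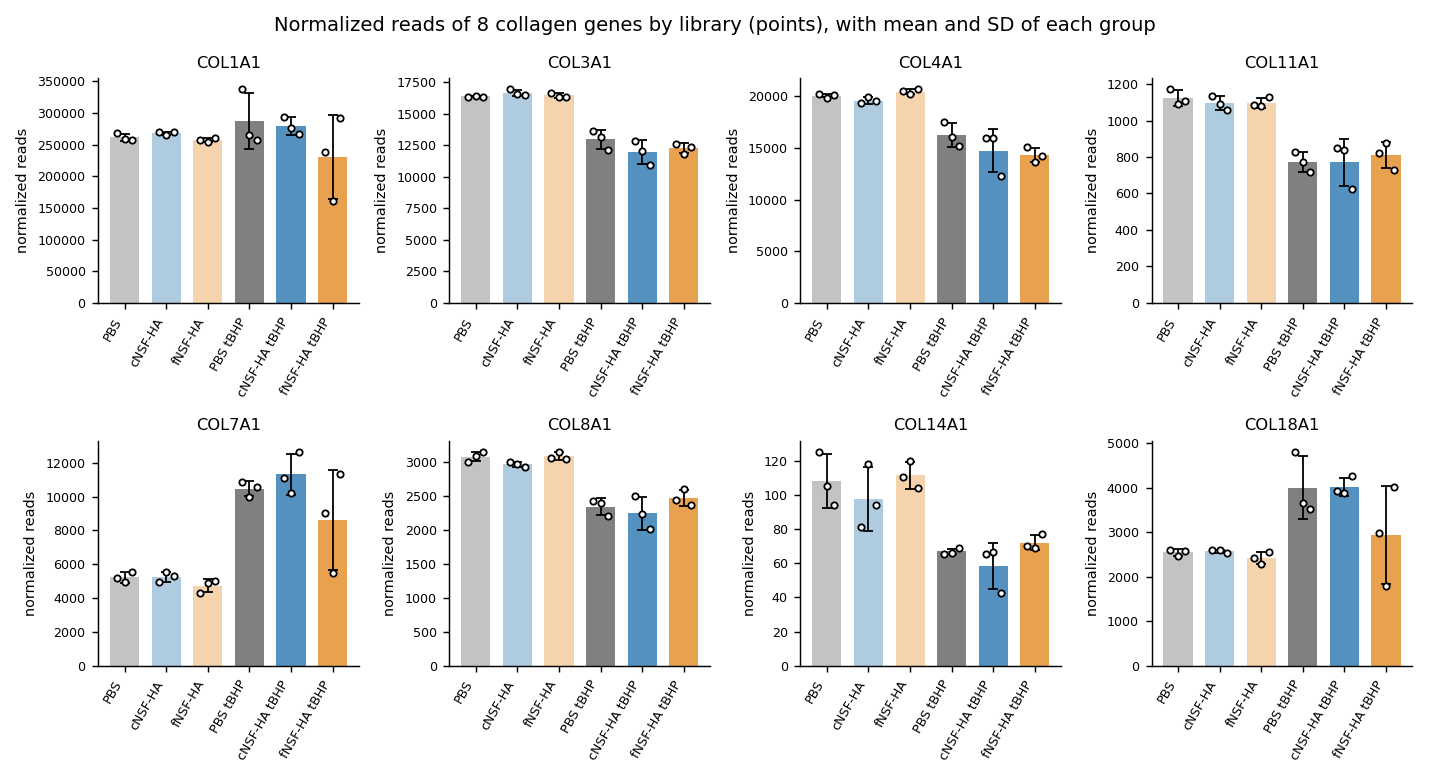
Deposited values of 8 collagens in each of the 18 libraries (points) with the mean (bar) and SD of each group. The stressed groups of COL3A1, COL4A1, COL8A1, COL11A1 and COL14A1 lie below their unstressed groups, and the stressed fNSF-HA groups of COL1A1, COL7A1 and COL18A1 spread widest.

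The type VI genes, which together with type I supplied most collagen reads, were not called in any response with all libraries in the fit. COL6A3 values were 177555, 175127 and 175829 for PBS, 172570, 175927 and 175572 for cNSF-HA and 172448, 178703 and 180710 for fNSF-HA without tBHP. They were 216235, 196894 and 183346 for PBS, 205014, 193453 and 133595 for cNSF-HA and 197324, 195055 and 184262 for fNSF-HA after tBHP. All but cNSF-HA tBHP replicate 3 were above every unstressed COL6A3 value, and the log2 differences were 0.17, -0.0029 and 0.12 (SE 0.11). Without that library and fNSF-HA tBHP replicate 2, COL6A3 was called higher with PBS (0.17, limma adjusted p 0.00608) and cNSF-HA (0.19, 0.00766), and without PBS tBHP replicate 1 as well, in each response (0.11, 0.19 and 0.11). The left-out libraries were picked with these values known, so those calls are a description only. Quantile normalization called COL6A3 higher with fNSF-HA (0.32, limma adjusted p 0.0384).

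COL6A1 values were 45066, 43736 and 44681 for PBS, 45518, 45307 and 45837 for cNSF-HA and 43125, 41939 and 44258 for fNSF-HA without tBHP. After tBHP they were 58875, 44769 and 44255 for PBS, 50663, 49749 and 48011 for cNSF-HA and 39425, 25690 and 51076 for fNSF-HA. For COL6A2 the unstressed values were 45989, 45166 and 44614 for PBS, 47058, 47141 and 46986 for cNSF-HA and 43400, 41853 and 44675 for fNSF-HA. The stressed COL6A2 values were 62632, 46543 and 45869 for PBS, 52202, 51740 and 58711 for cNSF-HA and 38048, 22327 and 54854 for fNSF-HA. Both genes spread more widely after tBHP, with the lowest value of each in fNSF-HA tBHP replicate 2 and the highest in PBS tBHP replicate 1, and their log2 differences lay between -0.27 and 0.20. Both were called lower with fNSF-HA when fNSF-HA tBHP replicate 3 was left out (-0.44 and -0.57), and with only the compared groups COL6A2 was called higher with cNSF-HA (0.20). COL8A2, COL13A1 and COL15A1 were not called either with all libraries in the fit, with log2 differences from -0.05 (COL13A1) to 0.42 (COL8A2). COL8A2 was called higher with cNSF-HA (0.51, limma adjusted p 0.0444) when fNSF-HA tBHP replicate 2 and cNSF-HA tBHP replicate 3 were left out.

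Collagen transcripts are long and rich in G and C. Their median transcript length was 6446 bases against 3385 over all genes tested, with 27 of 30 above that median, and their median GC content was 58.9% against 48.3%, with 24 of 30 above. Across the 30 collagens the log2 difference after tBHP was larger at higher GC content, at a Spearman's rho of 0.60 with PBS, 0.72 with cNSF-HA and 0.49 with fNSF-HA, as it was across 12503 genes with annotation (0.52, 0.52 and 0.24). These correlations are across genes of the same libraries and are descriptions only.

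Single stressed libraries also deviated with GC content. In fNSF-HA tBHP replicate 2 the 16 collagens with a mean of at least 1000 lay at a median of -0.40 log2 units from the mean of the stressed libraries, the 8 with GC content over 60% at -0.75, and the 1830 genes of all kinds with such GC content at -0.71, against 0.27 for the 6890 genes with GC content under 50%. PBS tBHP replicate 1 was the opposite, with 0 of 16 collagens below that mean and a median of 0.21, and its genes with GC content over 60% stood at 0.285. Those genes stood at 0.294 in cNSF-HA tBHP replicate 3, where the 8 collagens of such GC content were at 0.13 and the 3 under 50% at -0.29, and at 0.157 in fNSF-HA tBHP replicate 3. Between replicates, the median SD of the 16 collagens was 0.026 log2 units without tBHP and 0.205 after it, and over all genes 0.076 and 0.206.

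With a smooth trend in GC content and length removed from every library, the collagens split as 5 higher and 17 lower with PBS (26.9% and 31.2% of all genes), 3 and 16 with cNSF-HA (26.7% and 30.4%), and 5 and 13 with fNSF-HA (25% and 32%). The 6 collagens called in all 3 responses were called in the same direction in these fits, with log2 differences of 0.62 to 0.87 for COL7A1 and -0.51 to -0.55 for COL3A1. COL1A1, COL1A2, COL4A2, COL5A1, COL6A1, COL6A2, COL13A1 and COL16A1 were called lower in each response, COL1A1 at -0.20, -0.17 and -0.24 and COL6A2 at -0.22, -0.17 and -0.29. Whether COL1A1, COL1A2, COL6A1 and COL6A2 were called therefore depended on this step, and the part of GC content in the unadjusted values was not tested otherwise.

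Many collagens assemble from different chains in fixed proportions. The ratio of the chains of 1 type was compared as well, for 9 pairs of the same type and 1 pair of neighbouring genes, all chosen after values had been seen. The p-values of the ratios reuse those values, so they add nothing independent to the changes of single genes given above. The tBHP labels were permuted within pre-incubations (exact two-sided permutation test over the 8000 arrangements, Benjamini-Hochberg over the 9 pairs of the same type). COL1A1 to COL1A2, which enter type I collagen 2 to 1, stood, once divided by transcript length, at 1.53 to 1.64 without tBHP and at 1.10 to 1.78 after it, and the log2 change of the ratio was -0.016 (adjusted p 0.899 by exact permutation). Divided by the summed length of all annotated exons, that ratio stood at 2.16 to 2.31 without tBHP and at 1.555 to 2.51 after it. Whether it lay below or above 2 to 1 therefore depended on the length used. COL4A1 to COL4A2 was 0.72 to 0.78 in deposited values without tBHP and 0.51 to 0.66 in 8 of the 9 stressed libraries, while fNSF-HA tBHP replicate 2 stood at 0.79. That ratio fell by 0.29 on the log2 scale (adjusted p 0.003 by exact permutation), and each library left out in turn gave -0.33 to -0.25.

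COL5A1 to COL5A2 was 1.22 to 1.32 without tBHP and 0.78 to 1.22 after it, and fell by 0.28 log2 units (adjusted p 0.00225 by exact permutation). COL8A1 to COL8A2 fell by 0.61 (adjusted p 0.00225 by exact permutation), while COL11A1 to COL11A2, at -0.78, did not pass the threshold (adjusted p 0.0529 by exact permutation), both with a minor chain of low values. The ratios COL6A1 to COL6A2 (-0.022), COL6A3 to COL6A1 (0.080), COL9A3 to COL9A2 (0.17) and COL4A5 to COL4A6 (-0.16) had exact permutation adjusted p of 0.365 to 0.656. With the GC and length trend removed, COL4A1 to COL4A2 (-0.24), COL5A1 to COL5A2 (-0.45) and COL8A1 to COL8A2 (-0.36) kept their direction and call, COL11A1 to COL11A2 again had none (-0.53, adjusted p 0.0536 by exact permutation), and COL1A1 to COL1A2 (-0.058, adjusted p 0.00788) and COL6A3 to COL6A1 (0.22, adjusted p 0.00075) gained one.

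COL3A1 and COL5A2 lie tail to tail on chromosome 2 in GRCh38, COL3A1 at chr2:188974320-189012746 on the plus strand and COL5A2 at chr2:189031896-189225312 on the minus strand, 19149 bases apart. The ratio of their deposited values was 1.12 to 1.20 in the 9 libraries without tBHP and 0.79 to 0.90 in the 9 after it, without overlap. The log2 ratio was 0.20 on average without tBHP and -0.26 after it. This pair was picked after COL3A1 had been seen to fall, so its ratio is given as a description only. COL4A1 (chr13:110148963-110307233, minus strand) and COL4A2 (chr13:110305812-110513209, plus strand) lie head to head and overlap by 1422 bases in the annotation. The library kit does not mark strand, so reads from the shared stretch cannot be told apart. Of the 7 pairs of collagen genes within 100000 bases of each other, these and COL4A5 with COL4A6 and COL6A1 with COL6A2 had both members tested.

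**Figure D4:**
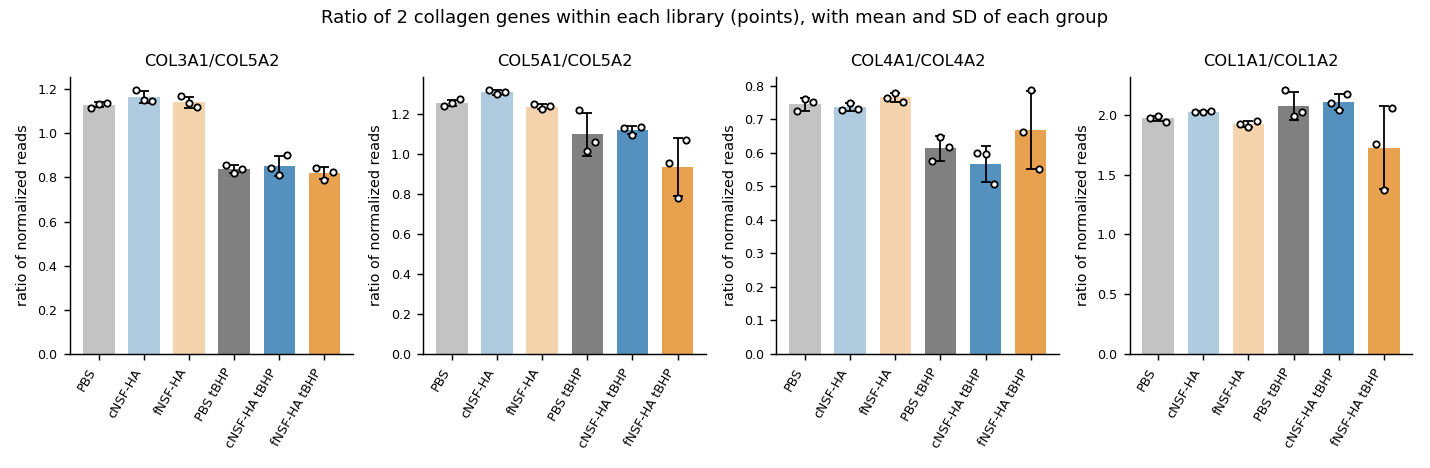
Ratio of deposited values of 4 pairs of collagen genes in the 18 libraries (points), without and after tBHP. COL3A1 to COL5A2 separates completely (1.12 to 1.20 against 0.79 to 0.90), COL4A1 to COL4A2 separates but for fNSF-HA tBHP replicate 2, and COL1A1 to COL1A2 overlaps.

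The 14 collagens with means below 10 included the cartilage genes COL2A1 and COL10A1, the type IV genes COL4A3 and COL4A4, and COL6A6, COL9A1, COL19A1, COL20A1, COL21A1, COL23A1, COL26A1 and COL28A1. With no filter on low values, COL10A1, COL25A1, COL26A1 and COL28A1 were also called lower with PBS (12.2% of 31441 genes), COL25A1 lower with fNSF-HA (8.88%) and COL2A1 higher with cNSF-HA (9.77%). They rest on few reads. COL25A1 had 9, 12 and 21 reads in the unstressed PBS libraries and 5, 2 and 1 in the stressed ones.

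For the machinery that makes and handles collagen, a list of 46 genes was used, 44 of which were tested. After tBHP 19 were called higher and 9 lower with PBS, 17 and 9 with cNSF-HA and 18 and 8 with fNSF-HA, against 24.2% and 26.9%, 24% and 26.8%, and 19.2% and 22.7% of all genes, with median log2 differences of 0.21, 0.25 and 0.14. Without fNSF-HA tBHP replicate 2 and cNSF-HA tBHP replicate 3 the counts were 22 and 11 with PBS (30.7% and 31.6% of all genes), 22 and 10 with cNSF-HA (26.9% and 28%), and 24 and 9 with fNSF-HA (26.9% and 28.6%). Of 13 hydroxylation genes tested, 8 were higher and 2 lower with PBS (24.2% and 26.9% of all genes), 9 and 1 with cNSF-HA, and 8 and 1 with fNSF-HA, among them the prolyl hydroxylase subunit P4HB (0.42, 0.50 and 0.33 with PBS, cNSF-HA and fNSF-HA), the prolyl isomerase PPIB (0.42, 0.60 and 0.43) and P4HA2 (0.43, 0.44 and 0.50), all called in every response. Of 10 chaperone and export genes, 4 were higher and 3 lower with PBS and with cNSF-HA, and 5 and 2 with fNSF-HA, beside the same shares. HSPA5, the main chaperone of the endoplasmic reticulum, rose by 1.44, 1.59 and 1.57 log2 units, and SERPINH1, the collagen-specific chaperone, by 0.52, 0.58 and 0.42, while SPARC, a collagen-binding matrix protein, fell by 0.28, 0.26 and 0.21.

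Among genes acting after secretion, LOX, the lysyl oxidase that crosslinks fibrils, fell by 0.81, 0.80 and 0.73 log2 units and was the 1 crosslinking gene of 5 called with PBS and with fNSF-HA (26.9% and 22.7% of all genes lower). With cNSF-HA LOXL3, another lysyl oxidase family member, was called higher besides (0.45). ADAMTS3, a procollagen N-proteinase, fell by 1.05, 1.11 and 1.00. Of the 6 propeptide cleavage genes, 1 was called higher and 1 lower with PBS and 0 and 2 with cNSF-HA and with fNSF-HA, and 4 of 6 had differences above 0 in each response. COLGALT2, a collagen galactosyltransferase, fell by 0.84, 0.93 and 0.86, and was the 1 of 2 glycosylation genes called in each response. Of 7 receptor and uptake genes, 5 were higher and 1 lower with PBS (24.2% and 26.9% of all genes), 2 and 1 with cNSF-HA (24% and 26.8%), and 4 and 1 with fNSF-HA (19.2% and 22.7%). The collagen receptor kinases DDR1 (0.85, 0.67 and 0.47) and DDR2 (0.56, 0.38 and 0.62) were called higher in every response and the integrin subunit ITGA1 lower (-0.70, -0.67 and -0.57). CREB3L1, a transcription factor that activates collagen genes, was called higher as well (0.55, 0.45 and 0.32).

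Between the HA groups, limma called none of the 30 collagens in any of the 6 comparisons, without or after tBHP, or in the 3 differences between responses, against 0% of all genes in each but fNSF-HA against PBS after tBHP (0.139%). Neither edgeR nor DESeq2 called a collagen there. Over all genes edgeR called 0.263% for fNSF-HA against PBS after tBHP and 0% elsewhere, and DESeq2 called 6.74% for cNSF-HA against fNSF-HA and 3.23% for fNSF-HA against PBS after tBHP, 0.0219% for fNSF-HA against PBS without tBHP, 0.0365% for cNSF-HA against PBS after it and 0.0438% for the difference between the fNSF-HA and PBS responses. Without tBHP 0 of 30 had an unadjusted limma p under 0.05 in each comparison (1.51% of all genes for cNSF-HA against fNSF-HA, 0.921% for cNSF-HA against PBS and 0.796% for fNSF-HA against PBS). The 16 collagens with a mean of at least 1000 differed between unstressed cNSF-HA and fNSF-HA cells by -0.06 to 0.16 on the log2 scale. Ranges did not overlap for 7 of 30 collagens in that comparison (25% of all genes), 7 for cNSF-HA against PBS (15.2%) and 3 for fNSF-HA against PBS (14%). When only the cNSF-HA and fNSF-HA groups entered the fit, COL6A1 (0.080), COL6A2 (0.12) and COL7A1 (0.16) were called higher with cNSF-HA, as were 1.78% of all genes.

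After tBHP, 9 collagens had an unadjusted limma p under 0.05 for cNSF-HA against fNSF-HA (32.2% of all genes), 2 for cNSF-HA against PBS (8.64%) and 10 for fNSF-HA against PBS (22.7%), and the smallest adjusted p were 0.0981, 0.4998 and 0.1425. Ranges did not overlap for 1, 1 and 3 of the 30 (13.4%, 9.57% and 12% of all genes). Differences of cNSF-HA minus fNSF-HA above 0 led with COL9A3 (0.70), COL6A2 (0.59), COL18A1 (0.53), COL11A2 (0.50), COL7A1 (0.45), COL6A1 (0.41), COL4A6 (0.37), COL16A1 (0.36) and COL1A1 (0.32), none of them called. With the GC and length trend removed these were 0.13, 0.09, 0.05, 0.16, 0.08, 0.03, 0.34, 0.03 and 0.07. Other collagens lay below 0, among them COL14A1 (mean deposited value 58.3 with cNSF-HA and 72.2 with fNSF-HA) and COL12A1 (24123 and 28618).

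These differences turned on single libraries. Without fNSF-HA tBHP replicate 3, 11 collagens were called for cNSF-HA against fNSF-HA after tBHP, 10 higher and COL12A1 lower (19.7% and 21.1% of all genes), and 11 for fNSF-HA against PBS, all lower (15.5%). COL1A1 then differed by 0.51 and -0.54. Without fNSF-HA tBHP replicate 2 and cNSF-HA tBHP replicate 3 none was called after tBHP (0%, 0% and 0.46% of all genes for cNSF-HA against fNSF-HA, cNSF-HA against PBS and fNSF-HA against PBS), nor with PBS tBHP replicate 1 left out as well (0.0804%, 2.61% and 1.02%). Across the 30 collagens the log2 difference between the stressed cNSF-HA and fNSF-HA libraries went with GC content at a Spearman's rho of 0.73, and across 12503 genes at 0.79. For the differences between tBHP responses, 1, 1 and 0 of the 30 had an unadjusted p under 0.05 (4.06%, 6.88% and 3.89% of all genes for cNSF-HA against PBS, fNSF-HA against PBS and cNSF-HA against fNSF-HA).

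**Figure D5:**
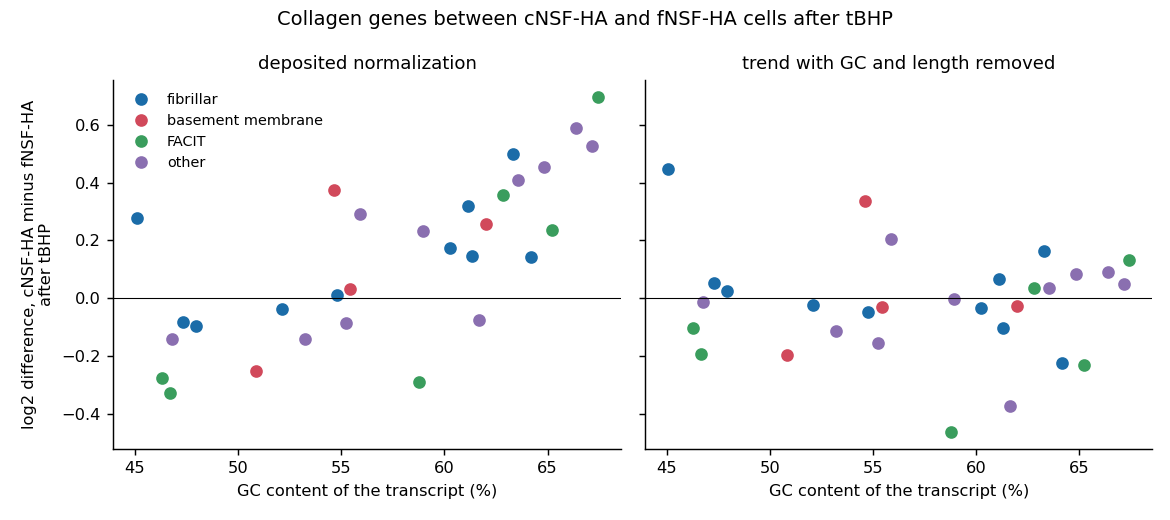
Log2 difference between the stressed cNSF-HA and fNSF-HA libraries (vertical axis) against transcript GC content in percent (horizontal axis) for the 30 collagens, from the deposited values and with the GC and length trend removed. COL9A3 (0.70), COL6A2 (0.59) and COL18A1 (0.53) lie highest in the deposited values and near 0.13, 0.09 and 0.05 after removal.

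The libraries held 20261103 to 26287660 reads assigned to genes. All 8 fibroblast markers had means of at least 10, with sums of 190400 to 196700 without tBHP and 169900 to 228300 after it, most of it from VIM (140319 to 196063). LUM was called lower in each response (log2 differences -1.33, -1.18 and -0.67), PDGFRB higher in each (0.60, 0.43 and 0.38), DCN lower with PBS and cNSF-HA (-0.26 and -0.20), FAP lower with PBS (-0.35) and PDGFRA lower with cNSF-HA (-0.29), and their part in the collagen values was not tested. With the GC and length trend removed LUM and PDGFRB kept their calls, the FAP, PDGFRA and PBS DCN calls were lost (0.078, -0.017 and 0.18), DCN was called higher with cNSF-HA (0.28), and THY1 was called lower in each response (-0.29, -0.21 and -0.31). Of the epithelial markers 1 of 5 (KRT19) passed 10, with a summed level of 174 to 198 without tBHP and 81.9 to 184 after it, and EPCAM, CDH1, KRT5 and SFTPC were below it. Of the endothelial markers 1 of 4 passed (VWF; sums of 6.52 to 14.8 and 13.1 to 25.1), and none of 3 leukocyte markers (1.97 to 5.87 and 2.19 to 11.4). Smooth muscle markers passed in 2 of 3 cases, with sums of 1105 to 1295 and 785 to 1421. Of these markers VWF was called higher with PBS and fNSF-HA (1.32 and 1.18), DES higher with PBS and cNSF-HA (0.75 and 0.65) and KRT19 lower with fNSF-HA (-0.60), of which the DES calls were lost with the trend removed (0.42 and 0.26), and their part in the collagen values was not tested.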

How the data were processed

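Polyadenylated RNA of 18 IMR90 libraries (6 groups of 3, from the labels) was sequenced by the authors as single-end reads after TruSeq RNA V2 preparation. The submitters' processing notes name Trimmomatic 0.32, STAR 2.5.2b, featureCounts (Subread 1.5.0-p3), DESeq2 and GRCh38.p7. The deposited values are a signal, read counts that the authors divided by the DESeq2 size factor of each library, and whole reads were recovered from them. The deposited p-value column and the score that ranks it (the authors' own comparison, not named) were not used. The members, gene lists and tests were chosen with earlier results of these data known.

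Log2 values (pseudocount 1) of the 13686 genes with a mean of at least 10 entered limma 3.58.1 (R 4.3.3) with a coefficient for each group, variances shrunk toward a trend with the mean, and two-sided p-values adjusted by Benjamini-Hochberg over all genes (threshold 0.05). Every collagen with a mean of at least 10 was to be named, with all libraries for those called after tBHP and the most abundant. On simulated data for the PBS response with 200 of 13686 genes changed by 1 log2 unit, limma called 89% of them, and 8.25% of its calls were false. The simulated counts were independent, with the same dispersion for every gene and library and no trend with GC content. In the data the median SD over all genes was 0.076 log2 units without tBHP and 0.206 after it. The simulation therefore checked the code, and its rates do not hold for these libraries. Alternatives were pseudocounts of 0.1 and 5, no filter and a minimum of 50, quantile and median scaling, a replicate block, edgeR 4.0.16 (quasi-likelihood test), DESeq2 1.42.0, the compared groups alone, removal of a spline trend (natural, 5 degrees of freedom) in transcript GC content and length for 12503 genes (91.4%) with GENCODE release 29 annotation and each library left out. Leaving out 2 or 3 libraries together and the chain ratios (scipy 1.17.1) were added after seeing the data. Libraries held 20261103 to 26287660 reads, and the median SD of the 16 collagens with a mean of at least 1000 was 0.026 log2 units without tBHP and 0.20 after it, against 0.011 from counting alone.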

Additional observations from a re-analysis of the deposited data

How the results depend on the processing

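The calls of COL3A1, COL4A1, COL7A1, COL8A1, COL11A1 and COL14A1 kept their direction and threshold in each response under all 31 other settings tried, as did those of COL9A2, COL18A1, COL17A1 and COL22A1 where these were called (30 settings for the last pair). Calls were lost under some settings for COL5A1 (15) and COL12A1 (7) with cNSF-HA, COL4A2 with fNSF-HA (7), and COL27A1 (4) and COL9A3 (3) with cNSF-HA. Of the single collagen calls, 954 results under the other settings stayed on their side of the threshold, 36 did not, and 0 changed direction. The collagens lower with PBS numbered 11 without a filter on low values, which tests more genes, and 17 with the trend in GC content and length removed. That removal gave 3 higher and 16 lower with cNSF-HA, 5 and 13 with fNSF-HA, and median log2 differences of -0.20 with PBS and -0.15 with cNSF-HA; the cause was not tested. With fNSF-HA 3 were higher with quantile normalization, with edgeR and with DESeq2, and 5 without fNSF-HA tBHP replicate 2 and cNSF-HA tBHP replicate 3, where the median became 0.045; with PBS tBHP replicate 1 left out as well, 6 were higher with fNSF-HA and 8 with cNSF-HA. Only the compared groups gave 3 calls for cNSF-HA against fNSF-HA without tBHP.

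With single libraries left out, the counts were 5 to 6 higher and 7 lower with PBS (20.3% to 28.4% and 23.3% to 29.6% of all genes), 3 to 5 higher (3 without cNSF-HA replicate 2) and 5 to 8 lower with cNSF-HA (20.1% to 28.1% and 23.2% to 29.8%), and 1 to 5 higher (5 without fNSF-HA tBHP replicate 2) and 6 to 11 lower (11 without fNSF-HA tBHP replicate 3) with fNSF-HA (15.6% to 24.4% and 18.7% to 26.2%). After tBHP 0 to 11 collagens were called for cNSF-HA against fNSF-HA and for fNSF-HA against PBS, with 11 reached without fNSF-HA tBHP replicate 3 (40.8% and 29.4% of all genes). Medians ran from -0.023 to 0.10, -0.050 to 0.092 and -0.19 to 0.045 with PBS, cNSF-HA and fNSF-HA. Same-numbered libraries of different groups deviated together in 7 of 45 pairs (r over 0.1, range -0.12 to 0.33), and the numbers were not taken as pairs. In 24 of 45 comparisons, however, a library correlated best with its own number among the 3 of the other group. Some deviation shared by number therefore remains possible. The replicate block left the counts of collagens at 5 higher and 7 lower with PBS and cNSF-HA and 1 and 7 with fNSF-HA. For the 14 collagens with means of 10 to 1000 counting alone gave a median SD of 0.17 log2 units, against 0.22 between libraries.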
